A study of Mus musculus with 8 samples.

Results

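The comparison described here is that of Dnmt1 knockout (KO) against wild type (WT) in cortical cells sorted from mice aged 18 months. It takes in every library that the labels place at that age, 2 KO and 2 WT, which makes 4 of the 8 libraries of the series. Both groups carried Cre recombinase at the parvalbumin locus (PV-Cre) and the Cre-dependent red reporter tdTomato on the C57BL/6 background. The KO mice (PV-Cre/tdTomato/Dnmt1 loxP2) also carried Dnmt1 alleles of the B6;129Sv-Dnmt1tm4Jae/J line, with loxP sites around exons 4 and 5, and the WT mice (PV-Cre/tdTomato/Dnmt1 wild-type) did not. Total RNA came from 1 hemisphere per mouse, and per the design text cells of 6 WT and 6 KO mice were pooled; whether that number is per age is not given. The 2 libraries of a group are technical replicates of pooled cells, so p-values measure the spread between such libraries and not between animals. Deletion is limited to cells that have expressed the parvalbumin gene, and any other sorted cell keeps its Dnmt1 alleles.

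DNMT1 copies methylation onto the new strand at CG dinucleotides after DNA replication, and it is also present in neurons, which no longer divide. Parvalbumin interneurons are fast-spiking inhibitory neurons that release GABA onto the cell bodies of cortical neurons. Around them lie astrocytes, which clear transmitter and buffer ions, oligodendrocytes, which make myelin, microglia, and the pericytes and endothelium of small vessels. Bulk RNA from a sort reports the sum over all cells collected, so that fewer cells of a type and less RNA per cell cannot be told apart.

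The 4 libraries held 8495242 and 13551218 counts (WT) and 12489638 and 11092756 counts (KO). Levels are given in CPM, the counts scaled to library depth with edgeR's TMM factors. Across genes, log2(CPM + 1) correlated with Pearson's r of 0.994 between the WT libraries and 0.995 between the KO libraries, and of 0.979 to 0.981 across genotypes. Malat1, a nuclear RNA, took 3.01% and 2.81% of counts in WT and 4.08% and 3.76% in KO. Mitochondrial rRNA took 4.3% and 2.68% in WT and 1.76% and 2.22% in KO, and the rRNA-like gene Gm26917 took 2.7% and 3.06% in WT and 1.67% and 1.82% in KO. The WT libraries at 6 months, used in the comparison between ages, stood apart with 9.97% and 9.29% of counts in Gm26917.

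Dnmt1, the targeted gene, lies on chromosome 9 from 20907209 to 20959888 (mm10, ENSMUSG00000004099). Its level was 80.8 and 81.1 CPM (WT) and 74.3 and 76.6 CPM (KO). The KO libraries lay below the WT libraries without overlap, but the difference did not pass the test (log2 fold change -0.10, SE 0.0692, adjusted p = 0.281) and was 0.040 with totals alone in place of TMM. Exons outside the deletion still yield reads, so the total over the gene is a weak check of the genotype. The de novo methyltransferase Dnmt3a was at 214 and 224 CPM (WT) and 212 and 214 CPM (KO), with overlapping groups (log2 fold change -0.04, SE 0.0578, adjusted p = 0.622; 0.0998 with totals alone). Dnmt3b was at 3.13 and 4.62 CPM (WT) and 4.73 and 6.12 CPM (KO) (log2 fold change 0.43, SE 0.241, adjusted p = 0.183).

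The labelled cell type was checked against its defining genes. Pvalb, which encodes parvalbumin, had 2 and 2 reads in WT and 1 and 0 in KO, too few to test. Gad1, the main enzyme of GABA synthesis, was at 11.4 and 13.9 CPM (WT) and 6.87 and 6.04 CPM (KO), lower in both KO libraries (log2 fold change -0.99, SE 0.15, adjusted p = 1.44e-05). Its partner Gad2 was at 3.89 and 2.62 CPM (WT) and 1.3 and 1.29 CPM (KO) (log2 fold change -1.26, SE 0.315, adjusted p = 0.0031). Lhx6, a transcription factor of these interneurons, had 5 reads over the 4 libraries. Myelin protein genes summed to 42427 and 42368 CPM in WT and 29182 and 28853 CPM in KO and astrocyte markers to 9547 and 9594 CPM in WT and 14996 and 15247 CPM in KO, against 813 and 783 CPM in WT and 777 and 784 CPM in KO for the list of parvalbumin interneuron genes. The defining marker of the label was thus at or near 0, and the groups are called WT and KO here by their labels alone.

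At 18 months 5844 of 18205 tested genes were called (32.1%), 2679 of them higher (14.7%) and 3165 lower (17.4%) in KO. Both KO libraries lay above both WT libraries in 32.6% of tested genes and below them in 34%. The increases were larger than the decreases. Genes called higher had a median fold of 1.65 and 36.7% of them changed by under 1.5-fold, whereas genes called lower had a median fold of 1.36 and 67.9% of them changed by under 1.5-fold. At least 2-fold differences were found in 713 genes higher (3.92%) and 267 lower (1.47%). Among highly expressed genes decreases prevailed, with 39.1% lower and 17.9% higher in the top quintile of genes by mean CPM. The split depends on the scaling, since 45.8% of all calls were higher here and 69.8% when totals alone were used, which moved the median of all genes up by 0.14 on the log2 scale. DESeq2 called 1695 genes higher, and without WT replicate 2 the number called lower was 1931.

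**Figure D1:**
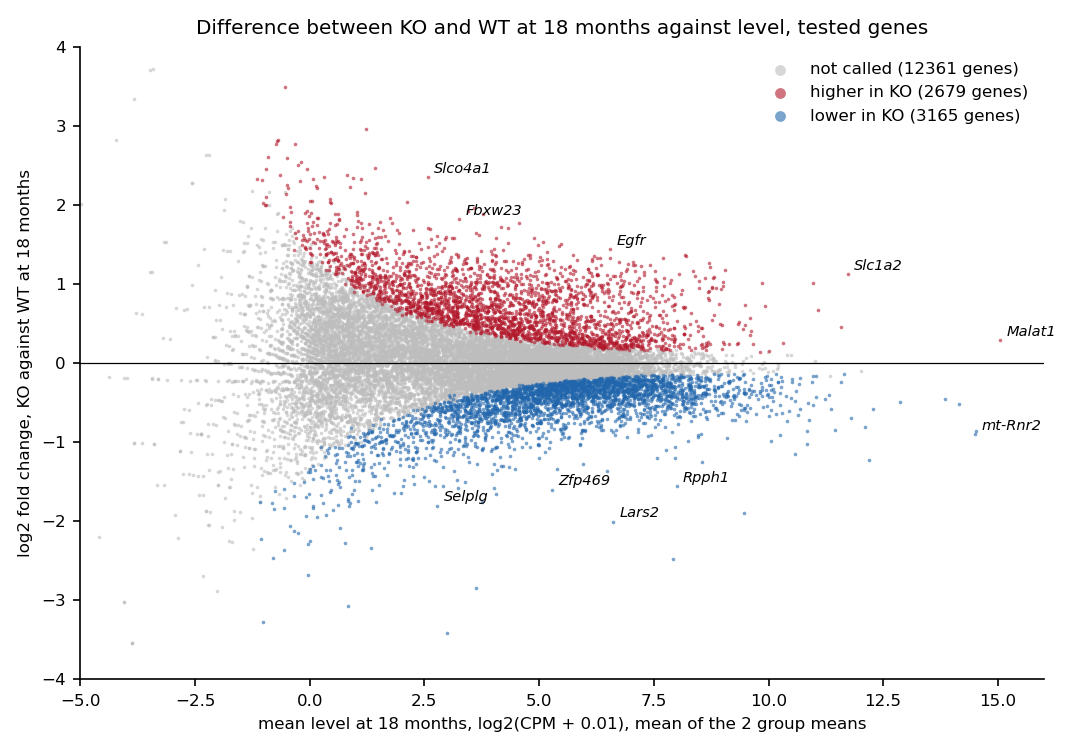
Log2 fold change between KO and WT (vertical axis) against mean level at 18 months (horizontal axis, log2(CPM + 0.01)) for the tested genes, each point 1 gene, coloured by its call. The 2679 genes called higher reach larger folds than the 3165 called lower, and the right-hand end of the plot holds more lower calls; the few genes beyond 4 on the log2 scale, Prl among them, are outside the plot.

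The largest difference at 18 months was in Prl, the pituitary hormone prolactin (ENSMUSG00000021342, chromosome 13, 27057570 to 27065205). It had 0 reads in both WT libraries and 699 and 680 reads in KO, or 53.4 and 58.7 CPM. Against a floor of 3 reads over the WT group, Prl was at least 390-fold higher in KO. Other pituitary genes gave a mixed picture. Pomc, the precursor of adrenocorticotropin, was at 0.627 and 0.77 CPM (WT) and 3.66 and 3.62 CPM (KO) (log2 fold change 2.33), and the secretory granule protein Chgb at 3.51 and 3.54 CPM (WT) and 8.32 and 11.6 CPM (KO) (1.48). Pcsk2, a prohormone convertase that neurons also make, was at 19.9 and 19.6 CPM (WT) and 13 and 13.2 CPM (KO) (-0.59). Of 9 tested members of the pituitary list 3 were higher and 1 was lower, against 14.7% and 17.4% of all tested genes. Growth hormone (Gh) had 1 read, the transcription factor Pou1f1 10 reads, and the gonadotropin subunits Lhb, Fshb and Cga none over the 4 libraries. Prl rose with few of the other pituitary genes measured, and the presence of pituitary cells was not tested.

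Because DNMT1 acts at CG dinucleotides, the windows around the start sites of 3 of the strongly changed genes are shown. They run from 250 bases before to 50 bases after the start (RefSeq, GRCm38.p6), 5′ to 3′ along the gene, with each CG in capitals. Prl and Lgr6 were higher in KO and Ctss was lower.
Prl: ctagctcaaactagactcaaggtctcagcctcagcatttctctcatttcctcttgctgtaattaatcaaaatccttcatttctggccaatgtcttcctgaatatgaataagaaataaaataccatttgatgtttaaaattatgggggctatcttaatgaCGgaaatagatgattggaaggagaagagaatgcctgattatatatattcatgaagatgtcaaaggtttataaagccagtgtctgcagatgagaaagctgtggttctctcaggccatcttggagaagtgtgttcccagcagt
Lgr6: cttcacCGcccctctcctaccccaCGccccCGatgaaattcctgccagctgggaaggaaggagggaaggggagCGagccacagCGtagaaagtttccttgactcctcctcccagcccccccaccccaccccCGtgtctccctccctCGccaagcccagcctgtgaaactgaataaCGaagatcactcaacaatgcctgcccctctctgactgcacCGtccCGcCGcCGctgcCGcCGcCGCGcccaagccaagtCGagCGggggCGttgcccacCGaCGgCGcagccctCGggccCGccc
Ctss: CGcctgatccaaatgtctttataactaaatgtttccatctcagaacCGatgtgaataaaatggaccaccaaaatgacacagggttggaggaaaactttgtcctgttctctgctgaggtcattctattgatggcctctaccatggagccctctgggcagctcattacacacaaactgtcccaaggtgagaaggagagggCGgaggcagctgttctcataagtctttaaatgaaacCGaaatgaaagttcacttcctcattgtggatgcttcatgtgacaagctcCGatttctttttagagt
The Prl window (chr13:27057320-27057619, plus strand) holds 1 CG, a number not exceeded by 14.1% of all 32851 windows of that length. The Lgr6 window (chr1:135105227-135105526, minus strand) holds 24, a number not exceeded by 81.6% of them. In the window of Ctss (chr3:95526536-95526835, plus strand) there are 5, not exceeded by 43.6%. All windows together had a median of 7 CG. The 11672 tested genes with a window had a median of 20, and 3.92% of them had 2 or fewer. The percentages are thus not ranks among the tested genes. A comparison of CG number between gene sets is void here, since 11672 of the 18205 tested genes have a window in the table. The counts describe the letters only, and methylation of these windows was not analysed here.

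The genes of largest increase after Prl are given here among those called without overlap at 10 CPM or more, clone names left out. Slco4a1, an organic anion transporter that carries thyroid hormone, was at 1.63 and 2.16 CPM (WT) and 8.32 and 11.7 CPM (KO) (log2 fold change 2.35, SE 0.259, adjusted p = 1.47e-07). The expressed pseudogene Fbxw23 was at 3.76 and 4.54 CPM (WT) and 14.5 and 15.5 CPM (KO) (log2 fold change 1.83, SE 0.185, adjusted p = 4.16e-08). For Greb1, known as an oestrogen-responsive gene, the values were 6.9 and 9.39 CPM (WT) and 26.5 and 28.9 CPM (KO) (log2 fold change 1.72, SE 0.142, adjusted p = 1.44e-09). In each of them both KO libraries lay above both WT libraries by more than the gap within a group. Hgf, the growth factor that activates the MET receptor, was at 7.65 and 5.31 CPM (WT) and 21.1 and 17.4 CPM (KO) (log2 fold change 1.62, SE 0.169, adjusted p = 6.29e-08). The transcription factor Tfcp2l1 was at 7.27 and 9.08 CPM (WT) and 24.9 and 24.9 CPM (KO) (log2 fold change 1.58, SE 0.154, adjusted p = 2.36e-08), and the R-spondin receptor Lgr6, whose start is shown above, at 16.7 and 17.8 CPM (WT) and 50.00 and 50.4 CPM (KO) (log2 fold change 1.53, SE 0.0966, adjusted p = 1.7e-11). Ppp1r3g directs protein phosphatase 1 to glycogen, and its level was 21.6 and 23.9 CPM (WT) and 61.7 and 66.7 CPM (KO) (log2 fold change 1.48, SE 0.0897, adjusted p = 9.25e-12). Egfr, the epidermal growth factor receptor, was at 47.5 and 52.3 CPM (WT) and 134 and 139 CPM (KO) (log2 fold change 1.44, SE 0.0698, adjusted p = 4.51e-13). The anti-apoptotic gene Tnfaip8 rose from 26 and 20.8 CPM to 66.2 and 64.3 CPM, and the non-coding RNAs Rmst and Emx2os rose 2.99-fold and 3.42-fold. Emx2os runs antisense to Emx2, and their reads cannot be told apart without strand.

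By the same limits, the decreases of largest fold included genes of several kinds. Lars2, the mitochondrial leucyl-tRNA synthetase, was at 86.1 and 227 CPM (WT) and 29.1 and 51.2 CPM (KO) (log2 fold change -2.01, SE 0.274, adjusted p = 3.38e-06), and its WT libraries differed from each other more than the nearer WT library did from KO in CPM. Rpph1, the RNA subunit of RNase P, was at 353 and 410.4 CPM (WT) and 87.3 and 175 CPM (KO) (log2 fold change -1.55, SE 0.196, adjusted p = 1.11e-06), again with a wide gap between libraries of a group. Zfp469, annotated as a long non-coding transcript, was at 61.4 and 56.3 CPM (WT) and 18 and 20.7 CPM (KO) (log2 fold change -1.60, SE 0.093, adjusted p = 4.89e-12). Basp1 is an abundant growth cone protein of neurons, and its level was 16.9 and 14.2 CPM (WT) and 5.27 and 5.52 CPM (KO) (log2 fold change -1.51, SE 0.158, adjusted p = 7.09e-08). The transcription factor Sp7, best known from bone, was at 25.1 and 23.6 CPM (WT) and 7.25 and 9.06 CPM (KO) (log2 fold change -1.58, SE 0.16, adjusted p = 4.28e-08), and the ligand Bmp2 at 12.9 and 14.2 CPM (WT) and 4.28 and 5.52 CPM (KO) (log2 fold change -1.48, SE 0.177, adjusted p = 5.13e-07). The other lower genes of this rank belonged to microglia or to blood and are described with those lists.

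**Figure D2:**
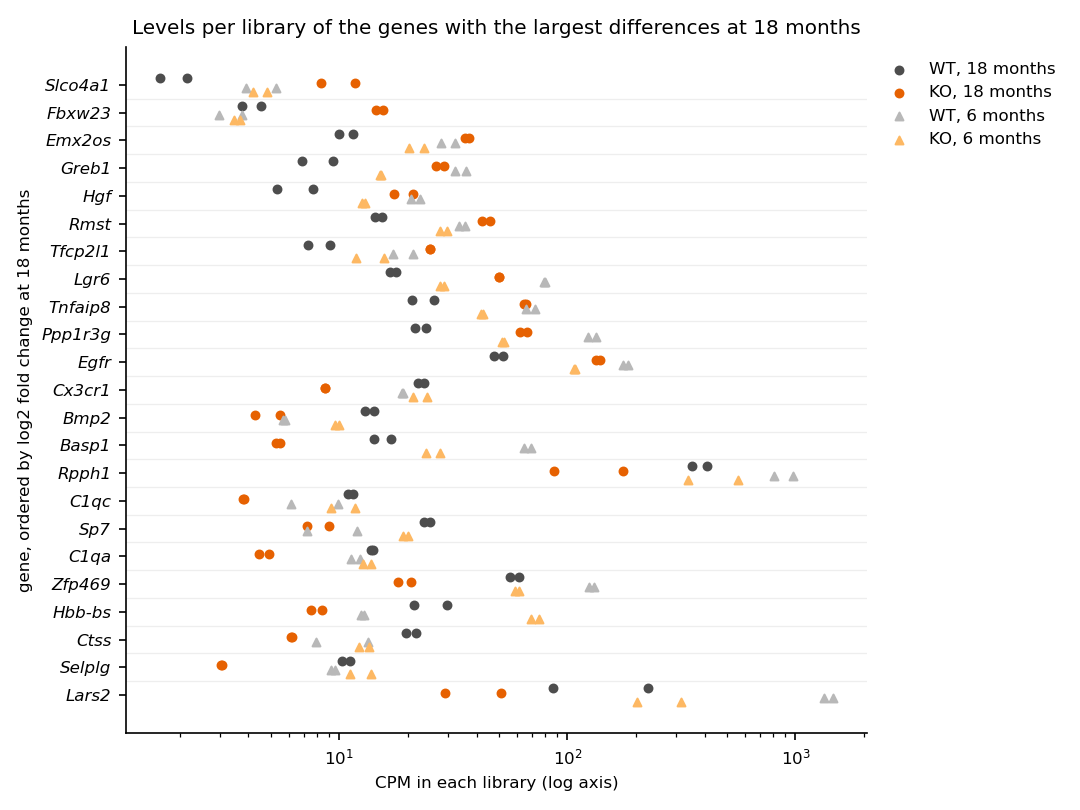
CPM in each of the 8 libraries (log axis) for the genes with the largest differences at 18 months among those at 10 CPM or more, Prl and clone names left out, ordered from the most increased (Slco4a1) to the most decreased (Lars2); each point is 1 library. The filled circles of KO and WT at 18 months separate in every gene drawn, while the triangles of the 6-month libraries of most upper genes lie nearer to each other or in the opposite order.

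Most astrocyte genes rose. Of 20 markers 18 rose and 1 fell, with a median log2 fold change of 1.05, and the list summed to 9547 and 9594 CPM in WT and 14996 and 15247 CPM in KO. Slc1a2, the main glutamate transporter of astrocytes, was at 2137 and 2125 CPM (WT) and 4722 and 4563 CPM (KO) (log2 fold change 1.12, SE 0.0454, adjusted p = 2.43e-14). The gap junction protein Gja1 (connexin 43) was at 265 and 241 CPM (WT) and 586 and 589 CPM (KO), and its partner Gjb6 (connexin 30) at 95.8 and 105 CPM (WT) and 239 and 239 CPM (KO). Aqp4, the water channel of astrocyte endfeet, was at 89 and 89.6 CPM (WT) and 217 and 201 CPM (KO), a 2.34-fold increase. The intermediate filament Gfap, which rises in reactive astrocytes, was at 12.5 and 14.2 CPM (WT) and 28.2 and 27.8 CPM (KO) (log2 fold change 1.05, SE 0.114, adjusted p = 1.11e-07). In none of these genes did the groups overlap. S100b, which oligodendrocytes also make, fell from 130.0 and 135 CPM to 97.6 and 102 CPM, and glutamine synthetase (Glul, named after its value was seen) was at 4277 and 4270.3 CPM (WT) and 3910.4 and 4026 CPM (KO) with no call (adjusted p = 0.0699).

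The list of reactive astrocyte genes did not move as 1 block. Of 14 members 9 rose and 2 fell, and its median was 0.61. The sphingosine receptor S1pr3 was at 17.8 and 19.2 CPM (WT) and 40.2 and 39.8 CPM (KO) and the glucocorticoid-induced Fkbp5 at 15.8 and 19.9 CPM (WT) and 31.5 and 29.2 CPM (KO), both higher. The acute-phase inhibitor Serpina3n fell from 29.3 and 28.5 CPM to 11.7 and 11.6 CPM (log2 fold change -1.31, SE 0.13, adjusted p = 2.75e-08). Complement component C4b fell from 338 and 358 CPM to 152 and 151 CPM (log2 fold change -1.20, SE 0.0603, adjusted p = 5.94e-13). These are among the best known reactive genes, and they went against Gfap. The summed level of the list was lower in KO (515 and 534 CPM in WT and 405 and 391 CPM in KO) although more members rose than fell. C4b alone fell by more CPM than the whole list did.

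Genes for the uptake of transmitter and the handling of ions and water followed the astrocyte markers in part. Of 14 uptake genes 7 rose and 1 fell. The GABA transporter Slc6a11 (GAT-3) was at 116 and 120.2 CPM (WT) and 294 and 301 CPM (KO) (log2 fold change 1.33, SE 0.0606, adjusted p = 1.66e-13), the glutamate transporter Slc1a3 at 608 and 618 CPM (WT) and 1217 and 1257 CPM (KO), and the glutamine exporter Slc38a3 at 166 and 161 CPM (WT) and 275 and 297 CPM (KO). The neuronal glutamate transporter Slc1a1 fell from 14.7 and 15.9 CPM to 10.00 and 9.83 CPM (log2 fold change -0.63, SE 0.145, adjusted p = 0.00155). Of 19 genes for potassium, chloride and water balance 9 rose and 5 fell. The beta subunits of the sodium pump split. Atp1b2, which astrocytes express, rose (149 and 139 against 248 and 276 CPM, WT against KO here and below), and Atp1b3 fell (382 and 380.4 against 272 and 282 CPM). Connexins split too, since Gjb1 (connexin 32) of oligodendrocytes fell from 215 and 211 CPM to 130.4 and 137 CPM. How far the astrocyte share of the RNA contributes was not tested.

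In the lists of developmental signalling more genes were called higher than lower, while 14.7% of all tested genes were higher and 17.4% lower. In the Notch pathway, which holds progenitors and astrocytes in their state through contact with neighbouring cells, 10 of 23 genes rose and 4 fell. Among the ligands Jag1 was higher (23.6 and 23.9 CPM (WT) and 46.4 and 44.6 CPM (KO)). Of the receptors Notch2 was at 124 and 119 CPM (WT) and 162 and 172 CPM (KO) and Notch3, a receptor of mural cells, at 50.9 and 56.7 CPM (WT) and 84.5 and 92 CPM (KO). Lfng, which adds sugar to Notch and tunes its choice of ligand, was at 52.5 and 53 CPM (WT) and 129 and 137 CPM (KO) (log2 fold change 1.33, SE 0.0687, adjusted p = 7.31e-13). The target Hes1 was at 10.4 and 11.4 CPM (WT) and 19.8 and 18.9 CPM (KO) (log2 fold change 0.82, SE 0.148, adjusted p = 0.000125). The lower members included the ligands Dll1 (log2 fold change -0.60) and Jag2 (-0.66). Both of these calls were lost without WT replicate 2 (adjusted p = 0.064 and 0.0776), where 1 member in all was lower, and that of Jag2 also without KO replicate 1 (0.1).

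For fibroblast growth factors and hedgehog, most genes rose. Of 25 genes 16 rose and 2 fell, with a median of 0.51. The receptor Fgfr3 was at 235 and 256 CPM (WT) and 585 and 600.1 CPM (KO) and Fgfr1 at 89.8 and 94.6 CPM (WT) and 148 and 167 CPM (KO). In hedgehog signalling, ligand binding to Ptch1 frees Smo to activate the Gli factors. Ptch1 was at 175 and 169 CPM (WT) and 250.2 and 274 CPM (KO), Gli2 at 23.8 and 23.2 CPM (WT) and 42.8 and 51.8 CPM (KO) and Gli3 at 51.3 and 45.5 CPM (WT) and 101 and 108 CPM (KO), all higher and without overlap. Hhip, which binds hedgehog ligands outside the cell, fell from 201 and 187 CPM to 155 and 144 CPM (log2 fold change -0.38, SE 0.0721, adjusted p = 0.000251).

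Of 31 Wnt genes 13 rose and 3 fell (median 0.35). The receptors Fzd1 (20.4 and 20.6 CPM (WT) and 51.1 and 51.2 CPM (KO)) and Fzd2 (20.4 and 21.9 CPM (WT) and 49.7 and 51.4 CPM (KO)) rose along with Lgr6. Nkd1, a target that restrains the pathway, fell from 108 and 103 CPM to 54.3 and 62.8 CPM (log2 fold change -0.84, SE 0.0798, adjusted p = 1.4e-08), and the ligase Rnf43, which removes Wnt receptors, fell from 50.5 and 53.7 CPM to 39 and 37 CPM. In the BMP and TGF-beta list 8 of 31 genes rose, or 14 when totals alone were used for scaling, 3 fell and 20 had no call. The receptor Bmpr1b was at 33.6 and 33.1 CPM (WT) and 77 and 68.2 CPM (KO), and the targets Id2 and Id4 were at 33.5 and 30.3 CPM (WT) and 67.4 and 72.7 CPM (KO) and at 43.6 and 38 CPM (WT) and 110.1 and 91.8 CPM (KO). The ligand Bmp2 and the inhibitory Smad7 (213 and 225 against 162 and 169 CPM) went the other way. In the YAP list, of genes that respond to stretch and cell contact, 7 of 13 rose and 1 fell, and the factors Yap1 (18.3 and 19.2 against 36.6 and 36.3 CPM) and Tead1 (26.6 and 26.5 against 53.1 and 52.9 CPM) were among the higher.

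Of 35 receptor tyrosine kinases and ligands 14 rose and 8 fell. Mertk, which astrocytes and phagocytes use to engulf debris, was at 164 and 169 CPM (WT) and 412 and 436 CPM (KO) (log2 fold change 1.35, SE 0.0594, adjusted p = 1.26e-13). Ntrk2, the receptor of brain-derived neurotrophic factor, was at 297 and 292 CPM (WT) and 514 and 528 CPM (KO). Ddr1, a collagen receptor of oligodendrocytes, fell from 434 and 464 CPM to 319.6 and 356 CPM and Tyro3 from 528 and 563 CPM to 359 and 377 CPM. Of 35 glial and neural transcription factors 20 rose and 11 fell. Rfx4 was at 29.97 and 35.1 CPM (WT) and 71.5 and 77.5 CPM (KO) and Lhx2 at 26 and 23.7 CPM (WT) and 47.3 and 50.03 CPM (KO), both higher, and Sox10, the master factor of the oligodendrocyte lineage, fell from 708 and 722 CPM to 341 and 400.4 CPM (log2 fold change -0.95, SE 0.066, adjusted p = 8.74e-11).

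**Figure D3:**
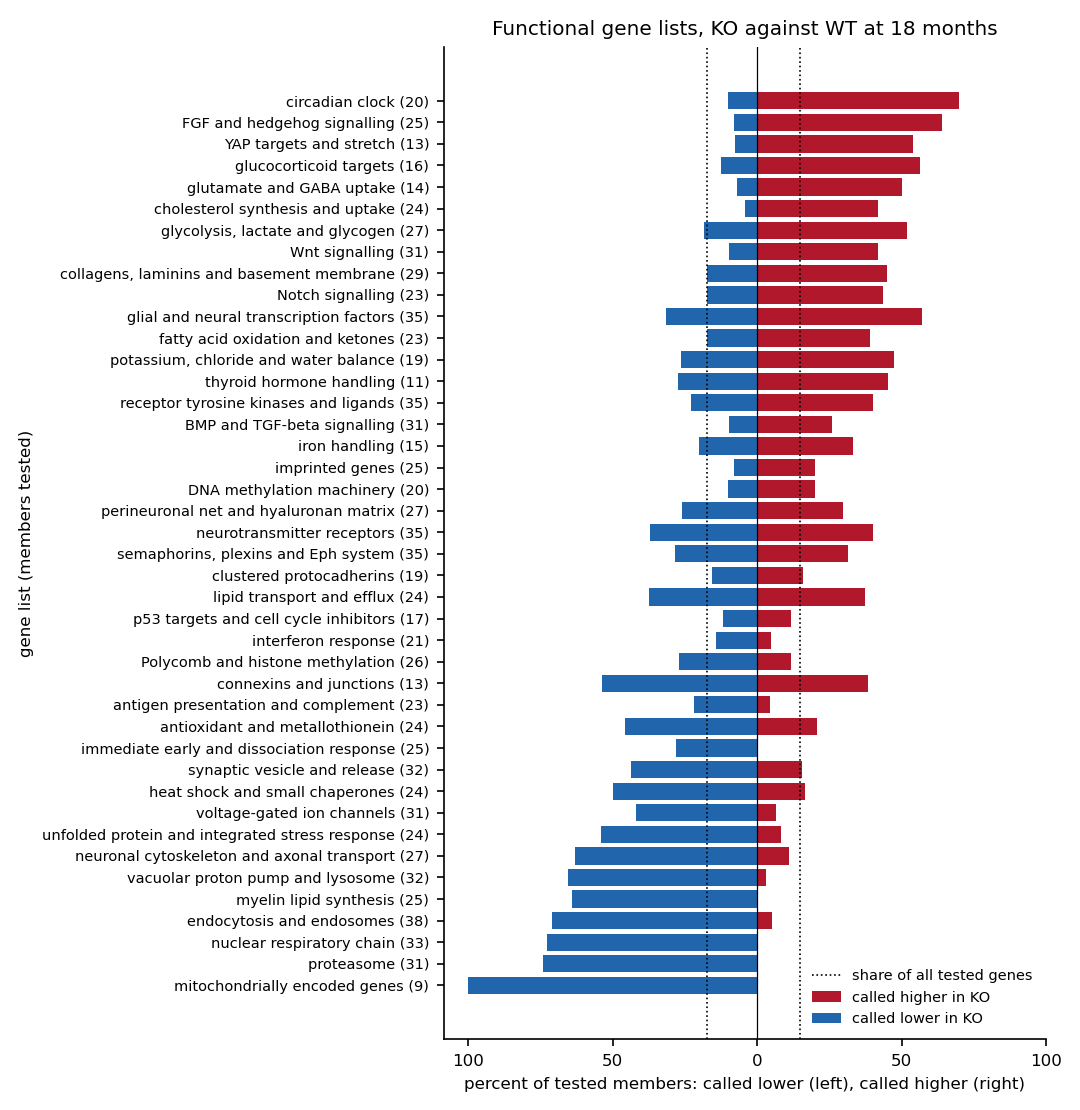
Percent of the tested members of each functional gene list called higher (right) or lower (left) in KO at 18 months, with the number tested in brackets; dotted lines mark the share of all tested genes (14.7% and 17.4%). Circadian clock and FGF and hedgehog genes stand at the top with most members higher, and mitochondrially encoded genes at the bottom with every tested member lower.

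Clock genes showed a clear tilt. In the circadian loop Clock, Npas2 and Arntl drive the Per, Cry and Rev-erb genes, which feed back on them. Of 20 members 14 rose and 2 fell, with a median of 0.51. The activator Npas2 was at 10.8 and 11.1 CPM (WT) and 26.4 and 27.3 CPM (KO) (log2 fold change 1.29, SE 0.12, adjusted p = 1.14e-08). The repressors Per3 (107 and 109.7 CPM (WT) and 164 and 170.0 CPM (KO)) and Nr1d1 (37.4 and 35.2 CPM (WT) and 59.9 and 72.4 CPM (KO)) rose too, as did the receptor Rora (69.2 and 70.8 CPM (WT) and 125 and 118 CPM (KO)). The activator Npas2 and the repressors Per3 and Nr1d1 were thus higher in the same libraries. Nfil3 fell from 15.8 and 13.5 CPM to 8.86 and 9.83 CPM. The hour at which the mice were killed is not stated in the labels, and its part in the result was not tested.

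Of 16 glucocorticoid target genes 9 rose and 2 fell. Zbtb16 was at 138 and 132 CPM (WT) and 187 and 200.5 CPM (KO), Tsc22d3 (GILZ) at 207 and 229.8 CPM (WT) and 279 and 263 CPM (KO) and the sulfotransferase Sult1a1 at 7.15 and 8.39 CPM (WT) and 15.8 and 18.4 CPM (KO). For thyroid hormone, the activating deiodinase Dio2 of astrocytes was at 156 and 151 CPM (WT) and 326 and 309.5 CPM (KO), and the thyroxine transporter Slco1c1 at 112 and 117 CPM (WT) and 257 and 256 CPM (KO), both higher. The receptor Thra (307 and 292 against 217 and 239.7 CPM) and the corepressor Hr (128 and 129 against 79.7 and 85.6 CPM) fell. Over the 11 tested genes of thyroid hormone handling 5 rose and 3 fell. The counts of both lists stand against 14.7% higher and 17.4% lower among all tested genes.

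In energy metabolism, 14 of 27 genes of glycolysis, lactate and glycogen rose and 5 fell (3 fell without WT replicate 2 or with totals alone). Isoforms parted. Aldolase Aldoc, the form of astrocytes, rose from 332 and 349.6 CPM to 666 and 722 CPM and the general form Aldoa fell from 496 and 483 CPM to 291 and 316 CPM. Phosphofructokinases Pfkm (76.1 and 83.2 against 141 and 143 CPM) and Pfkp (139 and 144 against 288 and 269 CPM) rose, as did the brain glycogen phosphorylase Pygb (139 and 150.4 against 253 and 245 CPM) and the glycogen regulator Ppp1r3g described above. The lactate carriers Slc16a1 (218 and 216 against 153 and 146 CPM) and Slc16a3 (14.9 and 13.6 against 8.4 and 8.45 CPM) fell. For fatty acid oxidation, 9 of 23 genes rose and 4 fell, against 14.7% and 17.4% of all tested genes. The lower count was 0 with totals alone, 1 without KO replicate 1 or WT replicate 2, and 2 with DESeq2, without KO replicate 2 or with no filter on low counts. Among the higher genes were the receptor Ppara at 5.77 and 6.08 CPM (WT) and 15 and 14.1 CPM (KO) and the mitochondrial entry enzyme Cpt1a at 50.9 and 52 CPM (WT) and 87.2 and 94.6 CPM (KO).

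The oligodendrocyte lineage was lower at every stage examined. Of 12 precursor markers 11 fell (median -0.68), of 12 markers of committed and newly formed cells 8 (-0.43), of 14 myelin protein genes 13 (-0.56), and of 15 markers of mature cells 14 (-0.54). The stages were not compared with each other by a test. Among precursors, the receptor Pdgfra was at 320.0 and 337 CPM (WT) and 201 and 209 CPM (KO) and the matrix protein Tnr at 327 and 324 CPM (WT) and 204 and 205 CPM (KO). Gpr17, which marks cells about to mature, was at 186 and 183 CPM (WT) and 98.6 and 103 CPM (KO) (log2 fold change -0.88, SE 0.0596, adjusted p = 5.95e-11). Myrf, the factor that starts the myelin programme, fell less, from 913 and 873 CPM to 644 and 721 CPM. Of the myelin proteins, Cnp was at 4225 and 4575 CPM (WT) and 2655 and 2788 CPM (KO) and Mog at 743 and 786 CPM (WT) and 447 and 479 CPM (KO). The late marker Apod was at 2441 and 2509.5 CPM (WT) and 1156 and 1272 CPM (KO) (log2 fold change -1.03, SE 0.0531, adjusted p = 7.31e-13), and Opalin at 397 and 409.9 CPM (WT) and 196 and 213 CPM (KO). The groups did not overlap in any of them. Ptprz1 (639 and 608 against 939 and 908 CPM) and Itpr2 (163 and 178 against 215 and 226 CPM), each of which other glia also express, rose.

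Enzymes of myelin lipids fell with the myelin proteins, while cholesterol synthesis did not. Of 25 genes of myelin lipid synthesis 16 fell and 0 rose (median -0.33). The desaturase Scd2 was at 8766 and 8652 CPM (WT) and 6044 and 6321 CPM (KO), the ceramide synthase Cers2 at 501 and 538 CPM (WT) and 376 and 403 CPM (KO), and the sulfatide enzyme Gal3st1 at 107 and 115 CPM (WT) and 73.6 and 78.4 CPM (KO). Of 24 cholesterol genes 10 rose and 1 fell. The cyclase Lss was at 106 and 103 CPM (WT) and 145 and 148 CPM (KO) and higher. Ebp, a sterol isomerase, was the member that fell (31.3 and 35.6 against 22.5 and 23.4 CPM). In lipid transport, the lipoprotein Clu (240.4 and 245 against 434 and 504 CPM) and the receptor Lrp8 (38.4 and 43.1 against 76.8 and 82.8 CPM) rose, and the exporter Abcg1 (452 and 464 against 299.6 and 312 CPM) and the lysosomal carrier Npc2 (130.0 and 139.6 against 89.2 and 92.1 CPM) fell. Iron genes divided as well. Ferritin heavy chain Fth1 was at 2158 and 2035 CPM (WT) and 854 and 1032 CPM (KO) (log2 fold change -1.15, SE 0.0684, adjusted p = 6.51e-12) and transferrin Trf, made by oligodendrocytes, at 393 and 429 CPM (WT) and 271 and 247 CPM (KO). The iron oxidase Heph rose from 8.02 and 6 CPM to 17.4 and 14.1 CPM and the importer Slc39a14 from 28.5 and 35.3 CPM to 51.6 and 50.03 CPM.

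**Figure D4:**
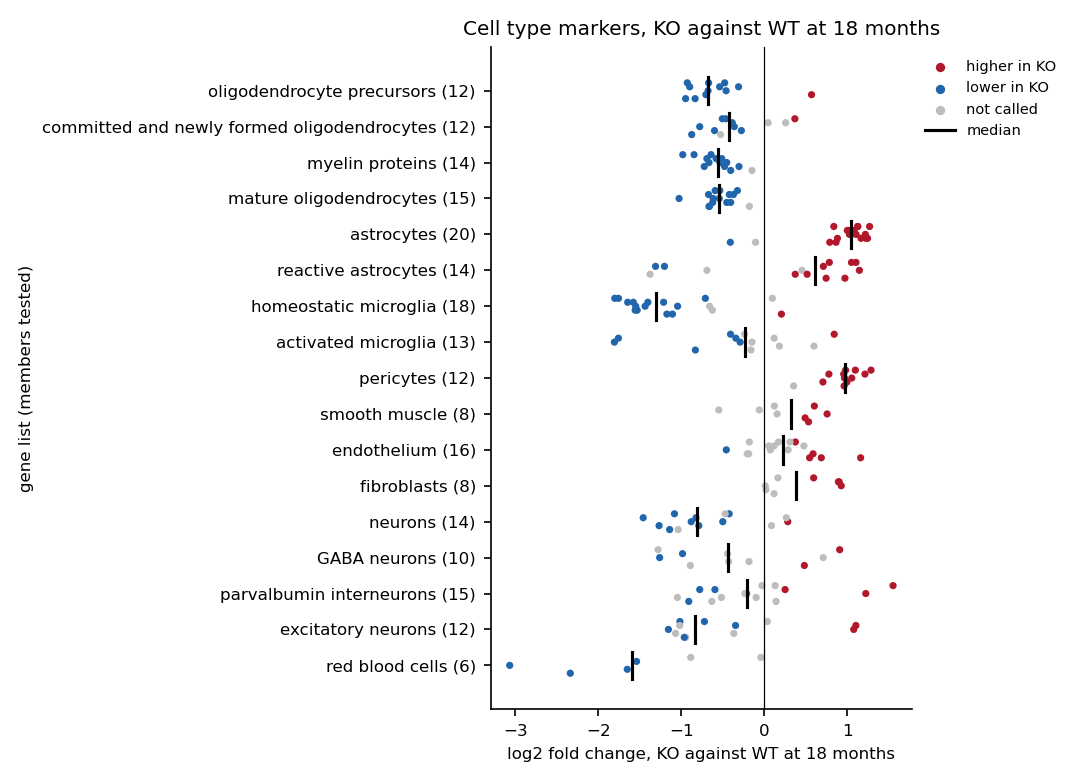
Log2 fold change between KO and WT at the age of 18 months (horizontal axis) for the tested members of each cell type marker list, each point 1 gene coloured by its call, with the median as a black bar and the number tested in brackets. Astrocyte and pericyte genes lie near 1, oligodendrocyte stages between the medians of -0.68 and -0.43, and homeostatic microglial genes near their median of -1.31.

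Homeostatic microglial genes had the lowest median of the glial lists, at low levels. Of 18 homeostatic markers 14 fell and 1 was called higher (Sall1, 1.15-fold), with a median of -1.31, and the list summed to 291 and 306 CPM in WT and 182 and 191 CPM in KO. The call of Sall1 was lost with DESeq2 (adjusted p = 0.129) and without any of 3 libraries, WT replicate 1 (0.0814), WT replicate 2 (0.142) and KO replicate 2 (0.318). The fractalkine receptor Cx3cr1 was at 22.1 and 23.5 CPM (WT) and 8.63 and 8.63 CPM (KO) (log2 fold change -1.40, SE 0.135, adjusted p = 1.84e-08). The lysosomal protease Ctss was at 19.7 and 21.8 CPM (WT) and 6.18 and 6.12 CPM (KO) (log2 fold change -1.76, SE 0.173, adjusted p = 2.7e-08), and the adhesion ligand Selplg at 11.2 and 10.2 CPM (WT) and 3.05 and 3.02 CPM (KO) (log2 fold change -1.80, SE 0.2, adjusted p = 1.61e-07). The 3 subunit genes of complement C1q fell together, C1qa from 13.8 and 14.1 CPM to 4.43 and 4.92 CPM, C1qb from 9.03 and 7.31 CPM to 2.6 and 3.36 CPM and C1qc from 10.9 and 11.5 CPM to 3.82 and 3.8 CPM. Of 13 genes of activated microglia 6 fell and 1 rose. Trem2, the lipid-sensing receptor, was at 3.51 and 4.85 CPM (WT) and 1.3 and 1.21 CPM (KO), and Axl, which astrocytes share, rose from 52.5 and 56.7 CPM to 97.9 and 98.5 CPM. Clec7a, Itgax and Cst7, the usual marks of the disease-associated state, had too few reads to test. Of 21 interferon genes 1 was higher and 3 were lower, against 14.7% and 17.4% of all tested genes. The lower calls were fewer without WT replicate 2 and 0 when totals alone were used for scaling.

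Blood genes were lower as well. Of 6 red blood cell genes 4 fell, among them the haemoglobin genes Hbb-bs (29.6 and 21.2 CPM (WT) and 7.48 and 8.37 CPM (KO); log2 fold change -1.65, SE 0.151, adjusted p = 8.39e-09) and Hba-a1 (3.89 and 4.54 CPM (WT) and 1.37 and 1.55 CPM (KO)). Near-identical haemoglobin copies share reads, so the single genes are uncertain. The list summed to 46.8 and 38.8 CPM in WT and 14.9 and 17.6 CPM in KO. The coagulation factor subunit F13a1, a marker of perivascular macrophages, had 10 reads in WT and none in KO, at least 3.93-fold lower, and the call was lost without WT replicate 2 (adjusted p = 0.175) or either KO library (0.0771 and 0.0566). The T cell gene Cd3e and the B cell gene Ms4a1 had no reads in the 4 libraries.

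Pericyte genes rose, as did some of the other vessel genes. Of 12 pericyte markers 11 rose and 0 fell (median 0.97), and the list summed to 944 and 963 CPM in WT and 1946 and 1908 CPM in KO. The potassium channel subunit Abcc9 was at 75.5 and 78.7 CPM (WT) and 196 and 180.3 CPM (KO) (log2 fold change 1.28, SE 0.0647, adjusted p = 6.01e-13), Rgs5 at 229.8 and 203 CPM (WT) and 489 and 433 CPM (KO) and the receptor Pdgfrb at 129.8 and 124 CPM (WT) and 250.2 and 242 CPM (KO). In smooth muscle 4 of 8 markers rose, with Myh11 at 78 and 78.4 CPM (WT) and 114 and 105 CPM (KO). In endothelium 5 of 16 rose and 1 fell, and without KO replicate 2 the rise was called in 3. Mfsd2a, the lipid carrier of the blood-brain barrier, was at 49.5 and 57.4 CPM (WT) and 74.4 and 83.1 CPM (KO). Among all tested genes 14.7% were higher and 17.4% lower. The differences between these vessel lists were not tested.

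In the basement membrane 13 of 29 genes rose and 5 fell, with 1 lower call left without WT replicate 2. Laminin chains led the increase, with Lamb2 at 40.9 and 48 CPM (WT) and 93.8 and 90.1 CPM (KO), Lama2 at 182 and 195 CPM (WT) and 307 and 297 CPM (KO) and Lama3 at 42.4 and 48 CPM (WT) and 106 and 104 CPM (KO). The matricellular protein Sparcl1, abundant in astrocytes, was at 721 and 737 CPM (WT) and 1206 and 1193 CPM (KO). Collagen Col4a2 went the other way (68.6 and 76.1 against 53.7 and 46 CPM). In the matrix around neurons 8 of 27 genes rose and 7 fell, against 14.7% and 17.4% of all tested genes. The protease inhibitors differed, since Timp3 (71.7 and 67.4 against 115 and 113 CPM) and Timp4 (38.5 and 42.3 against 70.6 and 79.5 CPM) rose and Timp2 fell (156 and 158 against 90.5 and 102 CPM). Among guidance molecules, Sema4b (46.3 and 42.7 against 86.4 and 97.7 CPM) and Ephb3 (20.9 and 23.1 against 34.2 and 39.3 CPM) rose, and Efnb3 (792 and 835 against 540.0 and 538 CPM) and Sema6a (369 and 359 against 256 and 280.1 CPM) fell.

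General neuronal genes mostly fell, while the lists of single neuron classes were mixed. Of 14 general neuronal genes 9 fell and 1 rose (median -0.81), although the list summed to 417 and 419 CPM in WT and 405 and 402 CPM in KO. The maternally expressed non-coding RNA Meg3 was at 4.51 and 3.54 CPM (WT) and 1.3 and 1.98 CPM (KO) (log2 fold change -1.27, SE 0.274, adjusted p = 0.000827), the calcium sensor of vesicle release Syt1 at 11.5 and 10.6 CPM (WT) and 5.5 and 4.83 CPM (KO), and Snap25, which joins vesicles to the membrane, at 31.3 and 22.9 CPM (WT) and 15.3 and 13.4 CPM (KO). Map2, a long dendritic transcript, rose from 225 and 221 CPM to 276 and 265 CPM. Of 10 tested genes of GABA neurons 2 rose and 2 fell, with a median log2 fold change of -0.44. The list nevertheless summed to 599 and 645 CPM in WT and 840.1 and 865 CPM in KO. These counts and those of the parvalbumin list, given next, lie near the shares of all tested genes, 14.7% higher and 17.4% lower. Of 15 parvalbumin interneuron genes 3 were higher and 4 lower, and without WT replicate 2 those counts were 0 and 1. The lower count was also 1 without WT replicate 1 or with totals alone and 0 without KO replicate 1, and the higher count was 1 with DESeq2. Of 12 excitatory genes 5 fell and 2 rose, and the list summed to 165 and 159.6 CPM in WT and 219 and 211 CPM in KO. The lower count was 1 without WT replicate 2 and 3 without either KO library, with DESeq2 or with totals alone. The kinase Camk2a was at 38.1 and 32.4 CPM (WT) and 15.2 and 19.4 CPM (KO). The factors Rorb (71 and 66.6 against 155 and 139 CPM) and Fezf2 (5.52 and 6 against 10.2 and 14.5 CPM) rose. Rorb alone made up a large part of the summed level of the excitatory list, whose median log2 fold change was -0.84.

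Receptors for transmitters divided by subunit. Of 35 tested, 14 rose and 13 fell, and the fall was called in 7 without WT replicate 2 and in 8 without KO replicate 2. The AMPA receptor subunit Gria2 was at 311 and 279 CPM (WT) and 611 and 532 CPM (KO) and higher, and Gria4 was at 103 and 103 CPM (WT) and 63.9 and 55.9 CPM (KO) and lower. Of the NMDA receptor subunits, Grin2c, which astrocytes express, rose from 213 and 216 CPM to 337 and 364 CPM and Grin2a fell from 6.39 and 7.39 CPM to 2.52 and 2.67 CPM (log2 fold change -1.43, SE 0.202, adjusted p = 5.74e-06). The GABA receptor subunits Gabrb1 (98.8 and 88.3 against 195 and 197 CPM) and Gabbr2 (48.8 and 49.96 against 77.8 and 86.9 CPM) rose, and the kainate subunit Grik3 fell from 21.9 and 29.2 CPM to 12.7 and 14.7 CPM.

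Among 31 genes for voltage-gated channels 13 were lower and 2 higher (8 fell without WT replicate 2). The calcium channel Cacna1a of presynaptic terminals was at 58.2 and 54 CPM (WT) and 30.5 and 32.1 CPM (KO) and the T-type channel Cacna1g at 8.53 and 7.54 CPM (WT) and 4.12 and 3.8 CPM (KO). The L-type channel Cacna1d rose from 26.1 and 25.8 CPM to 42.1 and 39.6 CPM. Of 32 genes of vesicles and release 14 fell and 5 rose (7 fell without WT replicate 2, and 8 with totals alone). Active zone genes Rims1 (17.2 and 18 against 6.87 and 7.76 CPM) and Bsn (35 and 31.6 against 15.8 and 16 CPM) fell. In the neuronal cytoskeleton 17 of 27 genes fell, or 11 with totals alone, and 3 rose, with the motor Kif5a at 130.3 and 134 CPM (WT) and 72.8 and 74.3 CPM (KO). Tppp, the tubulin-binding protein of oligodendrocytes, was also lower (1764 and 1785 against 1289 and 1251 CPM). Of 25 immediate early genes, which rise with activity and with tissue dissociation, 7 fell and 0 rose. Among all tested genes 17.4% were lower and 14.7% higher. Junb was at 14.3 and 15.8 CPM (WT) and 10.00 and 9.06 CPM (KO). Jun was at 79.7 and 78.3 CPM (WT) and 48.7 and 58.5 CPM (KO).

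Mitochondrial transcripts fell from both genomes. Of 13 tested genes of the mitochondrial genome 10 fell and 0 rose. The 9 tested members of the list of its protein and rRNA genes fell (median -0.98), with mt-Nd1 at 1665 and 1154 CPM (WT) and 659 and 767 CPM (KO) and mt-Co1 at 5983 and 5277 CPM (WT) and 3103 and 3342 CPM (KO). The 4 members not tested, mt-Co2, mt-Co3, mt-Atp6 and mt-Atp8, had no reads in any of the 8 libraries. The list therefore covers the mitochondrial genome in part, and the reason for the missing reads was not tested. The rRNA mt-Rnr1 was at 7578 and 5514 CPM (WT) and 2042 and 3540.5 CPM (KO) (log2 fold change -1.23, SE 0.159, adjusted p = 1.62e-06). For mt-Rnr2, at 38221 and 22426 CPM (WT) and 14780.1 and 17700.5 CPM (KO), the call was lost with DESeq2 (adjusted p = 0.118). Of 33 nuclear genes of the respiratory chain 24 fell and 0 rose (median -0.29). The complex I subunit Ndufa2 was at 23.2 and 20.3 CPM (WT) and 11.9 and 13 CPM (KO) and the complex IV subunit Cox6a1 at 76.6 and 79.6 CPM (WT) and 37.3 and 49.3 CPM (KO). The nuclear count was 14 without WT replicate 2 and 12 with totals alone.

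Genes of protein turnover fell by small amounts. Of 31 proteasome genes 23 fell and 0 rose (15 fell without WT replicate 2, and 14 with totals alone), with Psmb6 at 73.2 and 82.2 CPM (WT) and 49.5 and 55.5 CPM (KO). Lysosomal genes were lower for 21 of 32, or 12 with totals alone, and 1 was higher. The proton pump subunit Atp6v1e1 was at 106 and 106 CPM (WT) and 70.8 and 74.3 CPM (KO) and the membrane protein Scarb2 at 608 and 622 CPM (WT) and 487 and 453 CPM (KO). Of 38 genes of endocytosis 27 fell and 2 rose. The neuronal dynamin Dnm1 was at 26.3 and 28.7 CPM (WT) and 12.5 and 14 CPM (KO) and the clathrin light chain Cltb at 107 and 106 CPM (WT) and 69.3 and 73.1 CPM (KO), while Itsn1 rose from 87.9 and 87.1 CPM to 121 and 135 CPM. The oligodendrocyte markers fell in the same libraries, and their part in these lists was not tested.

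Stress genes were mixed, while 14.7% of all tested genes were higher and 17.4% lower. Of 24 genes of the unfolded protein and integrated stress response 13 fell (8 without KO replicate 1) and 2 rose. The chaperone Hspa5 (BiP) fell from 415 and 447 CPM to 311 and 297 CPM. The members that rose, Slc7a11 (82.9 and 78.3 against 202 and 179 CPM) and Slc3a2 (99.2 and 102 against 121 and 136 CPM), form the cystine-glutamate exchanger. Of 24 heat shock genes 12 fell and 4 rose (1 rose with DESeq2 or without WT replicate 2, and 2 without KO replicate 1). Cryab, a small chaperone of oligodendrocytes and astrocytes, was at 745 and 716 CPM (WT) and 393 and 491 CPM (KO), and Hspb8 rose from 3.64 and 4.77 CPM to 8.78 and 7.85 CPM. Of 24 antioxidant genes 11 fell and 5 rose. The lower count was 5 without KO replicate 1, 6 without WT replicate 2 and 7 with totals alone, and the higher count was 2 without KO replicate 2 and 3 with DESeq2 or without WT replicate 2. Gstp1 was at 43.6 and 56.6 CPM (WT) and 22.8 and 25.3 CPM (KO), Prdx6 rose from 150.3 and 163 CPM to 266 and 274 CPM and metallothionein Mt3 from 33.4 and 28.6 CPM to 46.9 and 51.2 CPM.

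Genes that write, read or remove DNA methylation changed little. Of 20 tested 4 were higher and 2 lower (median 0.06), close to the share of all genes. Tet2, which oxidises methylated cytosine, was at 162 and 151 CPM (WT) and 222 and 209 CPM (KO) (log2 fold change 0.46, SE 0.0602, adjusted p = 1.79e-06) and kept its call under every alternative run. The higher count was 1 with DESeq2, 8 with totals alone and 2 without WT replicate 1 or either KO library. Of 26 genes of Polycomb and histone methylation 3 were higher and 7 lower, and with totals alone those counts were 10 and 1, so no direction is given for the list. Imprinted genes, whose expression depends on methylation set in the germline, were higher for 5 and lower for 2 of 25, against 14.7% and 17.4% of all tested genes, and 8 were higher with totals alone. Grb10 was at 6.02 and 6.93 CPM (WT) and 12.1 and 12.9 CPM (KO), Peg3 at 165 and 154 CPM (WT) and 213 and 196 CPM (KO) and Snrpn at 43.6 and 39.3 CPM (WT) and 22.5 and 26.2 CPM (KO), the last of them lower. Of 19 clustered protocadherins, a family with methylated promoters, 3 were higher and 3 lower, near those shares of all genes. With totals alone 6 were higher, and the lower count was 1 with DESeq2 and 0 without KO replicate 2 or WT replicate 2. Genes within 20 Mb of Dnmt1 were called at 34.1% (of 220) and those on other chromosomes at 32%. Of the Y-linked genes Uty was at 53.9 and 56.1 CPM (WT) and 69.5 and 66.2 CPM (KO), called higher except without KO replicate 1 (adjusted p = 0.0689), and Xist had 14 reads in WT and 18 in KO.

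Long non-coding genes were shifted upward. Of 3567 tested 723 were higher (20.3%) and 114 lower (3.2%), with a median log2 fold change of 0.32. Of 13756 protein-coding genes 1879 were higher (13.7%) and 3013 lower (21.9%), with a median of -0.07. Non-coding genes are expressed at lower levels, so the classes were also set side by side within quintiles of level. In the middle quintile 37.7% of 605 non-coding and 14.7% of 2973 coding genes were higher. In the lowest quintile the shares were 8.45% and 3.49%, and in the highest 40% of 50 and 17.6% of 3572. The excess of higher calls was present in each quintile, and no test of the classes was made. Of the 723 higher non-coding genes 48.6% lay within 5 kb of a coding gene called higher, with none called lower there, against 13.4% of non-coding genes without a call. Near a coding gene called lower, 5.45% of 863 non-coding genes were higher and 6.6% were lower. With no tested coding gene within 5 kb, 22.15% of 465 were higher and 8.17% were lower. Strand settings are unknown here, so reads of a non-coding gene and of an overlapping coding gene cannot be told apart. Malat1 itself was at 32066 and 29278 CPM (WT) and 38891 and 35956 CPM (KO) (log2 fold change 0.29, SE 0.0536, adjusted p = 0.000184).

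**Figure D5:**
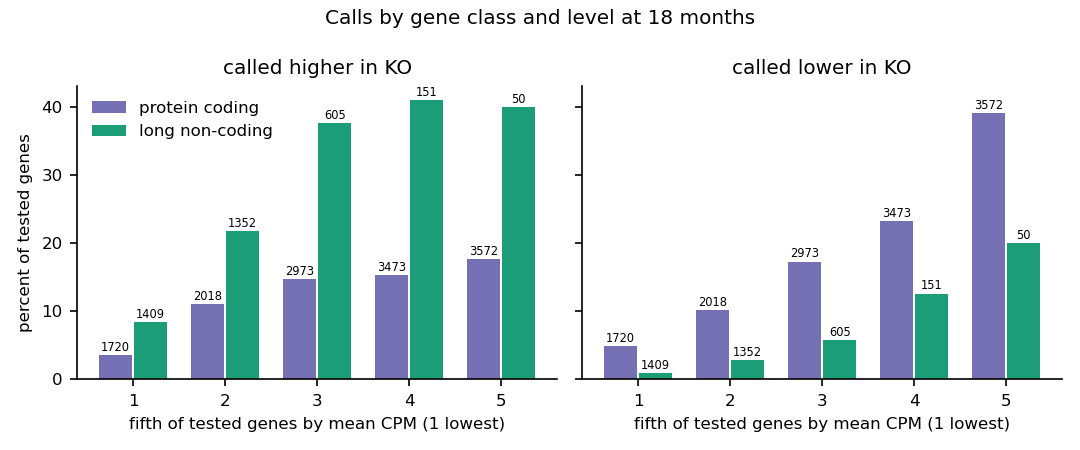
Percent of tested protein-coding and long non-coding genes called higher (left panel) or lower (right panel) in KO at 18 months, by quintile of all tested genes by mean CPM, with the number of genes above each bar. Non-coding bars are taller on the left and shorter on the right in every quintile.

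The genes of largest gain and loss in read share are listed next. CPM is not corrected for length, so these differences rank reads and not molecules. The gains after Malat1 included Slc1a2, the nuclear envelope gene Syne1 (1626 and 1687 against 2685 and 2611 CPM), the cytoskeletal linker Macf1 (2522 and 2638 against 3623 and 3444 CPM), Slc1a3, Sparcl1 and the kinase gene Dclk1 (353 and 298 against 795 and 670.0 CPM). The losses included mt-Rnr2, the small nuclear RNA Rn7sk (21942 and 21136 against 14372 and 15764 CPM), mt-Rnr1, Scd2, mt-Co1, the myelin gene Mbp (6005 and 5867 against 3832 and 4101 CPM) and Cnp. Each of these genes had both libraries of one genotype above both of the other.

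The genotype difference at 18 months was set against that at 6 months, the other age of the study, by a test of the interaction. It was called in 7126 of the 18205 genes (39.1%), with 3358 genes (18.4%) more positive and 3768 (20.7%) more negative at 18 months. The younger KO mice had 3491 genes higher (19.2%) and 3576 lower (19.6%). Of the 2679 genes higher at 18 months, 1161 were lower and 293 were higher at 6 months. Of the 3165 genes lower at 18 months, 1438 were higher and 498 were lower at 6 months. The comparisons share no library.

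Genes called in opposite directions at the ages spanned several of the groups above. Whole marker lists did so too. At 6 months 18 of 20 astrocyte markers were lower in KO and 1 was higher (median -0.87). All 14 myelin protein genes and all 15 markers of mature oligodendrocytes were higher in KO at that age. Other lists kept their direction, with 10 of 12 precursor markers lower and 6 of 12 pericyte markers higher at 6 months. Lgr6 was at means of 79.3 (WT) and 28.2 CPM (KO) at 6 months and at 16.7 and 17.8 CPM (WT) and 50.00 and 50.4 CPM (KO) at 18 months (interaction log2 value 3.02, SE 0.135, adjusted p = 1.21e-14). Lfng was at means of 295 (WT) and 109.5 CPM (KO) at 6 months (interaction log2 value 2.76, SE 0.0942, adjusted p = 3.02e-16), and the insulin-like growth factor binding protein Igfbp2 at means of 103 (WT) and 33.5 CPM (KO) (interaction log2 value 2.82, SE 0.146, adjusted p = 1.47e-13), against 16.7 and 16.3 CPM (WT) and 35.3 and 40.3 CPM (KO) at 18 months. Ppp1r3g and Greb1 behaved in the same way, with interaction log2 values of 2.78 and 2.89. In these genes the level of WT at 18 months was the lowest of the 4 group means. In the other direction, the Y RNA Rny1 was at means of 15 (WT) and 273 CPM (KO) at 6 months and at 286 and 331 CPM (WT) and 213 and 122 CPM (KO) at 18 months. Rny3 had a similar pattern, but its decrease at 18 months was lost with DESeq2 (adjusted p = 0.349), with totals alone (0.0896), and without KO replicate 2 (0.419) or WT replicate 2 (0.132). Hbb-bs went from means of 12.7 (WT) and 72.2 CPM (KO) at 6 months to 29.6 and 21.2 CPM (WT) and 7.48 and 8.37 CPM (KO) at 18 months (interaction log2 value -4.16, SE 0.21, adjusted p = 8.86e-14). Some genes moved alike at both ages. Lars2 was at means of 1399.7 (WT) and 259 CPM (KO) at 6 months, Basp1 at means of 66.9 (WT) and 25.8 CPM (KO) and Rpph1 at means of 887 (WT) and 448 CPM (KO), lower in KO each time, and their interaction tests did not pass (adjusted p = 0.378, 0.637 and 0.0988). Prl had 0 reads in WT and 1910 and 1843 in KO at 6 months, and with 0 in WT at both ages its interaction cannot be estimated.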

How the data were processed

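The deposited values are read counts per gene, 1 file per library, for 55573 Ensembl gene IDs. The authors made these counts with featureCounts 1.5.0-p1 after STAR 2.5.2a and CASAVA 1.8.2, on mm10, per the submitters' processing notes; the annotation release and the strand and multi-mapping settings are not stated. Symbols and positions came from GENCODE M21 (99.8% of IDs named).

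Groups followed the labels. Genes passing filterByExpr (minimum count 10) were tested with edgeR 4.0.16 (quasi-likelihood F test, TMM) in R 4.3.3 in 1 fit of the 4 groups, 8 libraries, so that the ages share the estimate of the spread. P-values were adjusted by Benjamini-Hochberg over the 18205 genes tested, with a threshold of 0.05 ("called"). SE is that of the log2 fold change. A group at 0 reads was set to a floor of 3 reads over the group; floors cover counting error only. Alternatives were DESeq2 1.42.0, other scalings and filters, the 18-month libraries alone, a replicate block and leaving out each 18-month library in turn.

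The comparison, the 64 gene lists and the naming rule were chosen with earlier results of these data known. Named were Dnmt1, Dnmt3a, Dnmt3b, Pvalb, Gad1 and Gad2; the 12 higher and 12 lower called genes of largest fold with at least 10 CPM and no overlap, clone names left out; from each list up to 5 members by smallest p, those against its direction and the sex-linked genes; the 8 higher and 8 lower with the largest CPM difference; and the 6 in each direction opposite at 6 months. Some genes that the rule names are not reported here.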

Additional observations from a re-analysis of the deposited data

Results flagged for a closer look

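The genotype difference of 22 genes among the methyltransferases, the GABA enzymes and the genes of largest fold differed between 18 and 6 months in the edgeR test of the interaction. The value is the genotype log2 fold change of the older mice minus that of the younger mice.

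More positive at 18 months were Lgr6 (3.02), Greb1 (2.89), Ppp1r3g (2.78), Hgf (2.38), Slco4a1 (2.38), Emx2os (2.23), Tnfaip8 (2.21), Egfr (2.18), Tfcp2l1 (2.06), Rmst (1.85) and Fbxw23 (1.74). Adjusted p was 0.00034 for Fbxw23 and smaller for the other 10. Slco4a1 and Fbxw23 had log2 fold changes of -0.03 and 0.09 at 6 months, while the other 9 had negative ones there, from -0.28 in Rmst to -1.49 in Lgr6.

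More negative at 18 months were Hbb-bs (-4.16), Sp7 (-2.59), Bmp2 (-2.25), Selplg (-2.20), Ctss (-2.03), C1qc (-1.94), C1qa (-1.75), Cx3cr1 (-1.66) and Zfp469 (-0.51). Adjusted p was 0.00191 for Zfp469 and smaller for the other 8. The microglial genes among them had no call at 6 months, with log2 fold changes from 0.17 (C1qa) to 0.40 (Selplg). Zfp469 was lower in KO at both ages, by more at 18 months.

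Gad1 had a value of 2.14 (SE 0.194, adjusted p = 2.52e-09), since its decrease in KO was larger at 6 months (log2 fold change -3.12) than at 18 months (-0.99). For Dnmt1 the value was 0.30 (SE 0.101, adjusted p = 0.0202). That call did not hold under DESeq2 (adjusted p = 0.101), with unfiltered genes (0.06), or without KO replicate 2 (0.0663), WT replicate 1 (0.0722) or WT replicate 2 (0.0614) of 18 months. The calls of the other 21 genes held under each of these alternatives that gave a value. The WT libraries at 6 months, which stood apart in their composition, enter every one of these values. Neither of them was left out in turn.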

How the results depend on the processing

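No gene called in the fit reported was called in the opposite direction under any of the 12 alternatives. With DESeq2, 1695 genes were higher and 443 at least 2-fold higher. With totals alone in place of TMM, 4268 were higher and 1848 lower, 1159 and 167 of them by at least 2-fold. With at least 50 counts in each library of 1 group, 455 and 147 genes differed by at least 2-fold, since fewer genes were tested. The cause of the other shifts was not tested. Leaving out 1 library at a time gave 1806 to 2299 genes higher, 1931 to 2587 lower, 537 to 709 at least 2-fold higher, 195 to 271 at least 2-fold lower, and 6184 to 6392 interaction calls. The lowest number of lower calls came without WT replicate 2. The 18-month libraries alone gave 3016 higher and 3279 lower.

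Of 357 called genes that the naming rule selects, 295 kept it under every alternative that gave a value. Signs reversed only in genes without a call. With totals alone these were Dnmt1 (0.040) and Dnmt3a (0.0998), and leaving out 1 library at a time moved Dnmt3a between -0.065 and 0.015.

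The labels number the libraries alike in each group, but deviations of same-numbered libraries correlated at only 0.004 to 0.11, so the numbers were not taken as pairs. A replicate block gave 2886 genes higher, 3436 lower, 714 and 271 of at least 2-fold, and 7494 interaction calls, and ended none of those 357 calls. With 2 libraries of 1 pool per group, the spread between animals is not measured at any depth.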
